A study of Mus musculus with 9 samples.

Results

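The 10 genes described here are Trp53, which encodes the transcription factor p53, and 9 of the genes it is known to activate: Mdm2, Ccng1, Bax, Bbc3, Pmaip1, Perp, Sesn2, Trp53inp1 and Zmat3. They were taken by exact symbol, and all 10 were among the 14742 genes that had enough counts to be tested. The mRNA levels came from mouse embryonic stem cells of strain 129, wild type in genotype, that were grown as a monolayer and exposed to retinoic acid and SAG, an agonist of the Hedgehog receptor component Smoothened, from 0 to 3 DDC (days in differentiation conditions). Neural progenitors of the ventral hindbrain were collected at 4.5DDC, 5.5DDC and 6.5DDC by magnetic sorting for the neural stem cell surface protein prominin-1. There were 3 libraries at each time point, 9 in all, and the groups differed in time alone. The labels name the collection days as 4, 5 and 6 in one field and as 4.5, 5.5 and 6.5 in another, and the latter are used here. Every group was a culture of the same line differentiated in a dish, and the sources used here give no purity value for the sorted cells of these libraries.

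The p53 protein is made continuously and, in unstressed cells, is bound and marked for destruction by Mdm2, a ubiquitin ligase whose own gene p53 activates, so that the pair forms a feedback loop. When DNA damage or another stress stabilises it, p53 binds pairs of short DNA motifs near its target genes and drives arrest of the cell cycle, repair, metabolic adjustment or, through proteins that permeabilise mitochondria, apoptosis. It is well known in pluripotent cells and in the closing neural tube, where some mouse embryos without it fail to close the cranial part. Because p53 is controlled mainly as a protein, its mRNA level is not a measure of its activity, and neither protein nor DNA binding was measured in these libraries.

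Counts per library summed to between 11066568 and 25506193, and a detection floor of 3 counts, which covers counting error only, stood for 0.118 to 0.271 CPM (counts scaled to the library total). The members had between 23 counts (Pmaip1) and 17679 counts (Ccng1) in a library, and all 10 passed the filter on low counts. Levels are given as FPKM, fragments scaled to transcript length and to mapped reads, and genes are ranked by it. FPKM and counts can disagree between genes, as for Rps27l and Rpl11 below, so these ranks hold for the FPKM values only. Changes are log2 fold changes with their SE, tested with edgeR's quasi-likelihood F-test and the Benjamini-Hochberg adjustment over all 14742 genes, and a gene is said to have risen or fallen where the adjusted p was under 0.05. Nothing in the labels says that the 3 libraries of a time point were separate cultures, so p-values measure the spread between these libraries, which may be technical. The 3 libraries numbered 1 stood apart from the others in their low level of neuronal genes (below), and the results were also computed without them, a choice made after seeing the data. In sorted bulk cells, a lower level in each cell and a smaller number of expressing cells cannot be told apart.

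**Figure D1:**
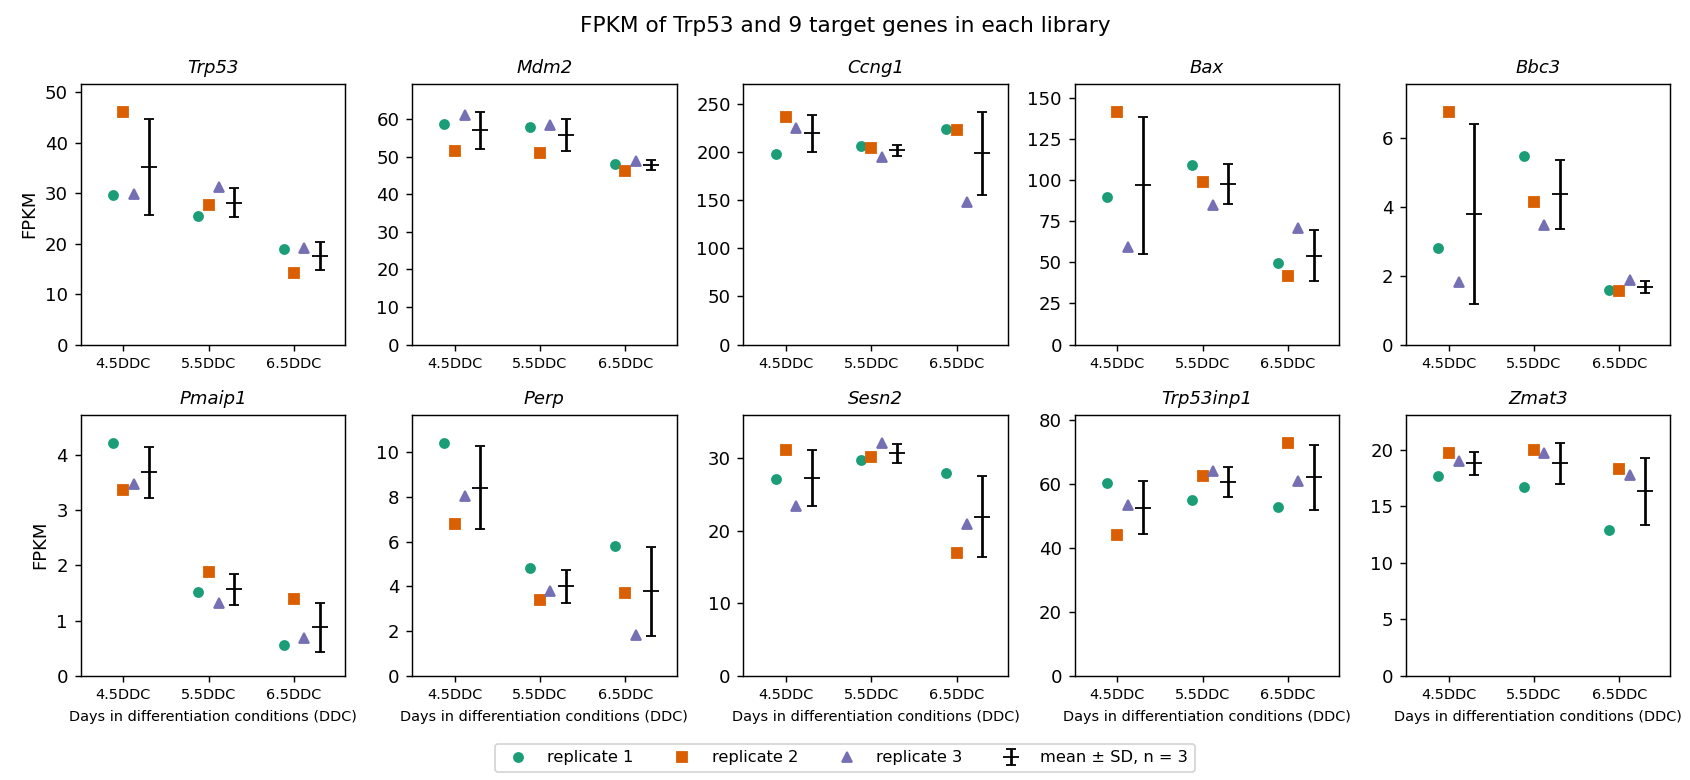
FPKM of each of the 10 genes in each of the 9 libraries, by time point, with the replicate number as symbol and the mean ± SD of 3 libraries in black; each panel has its own linear axis from 0. The 3 libraries at 6.5DDC lie below all 3 at 4.5DDC for Trp53, Mdm2, Pmaip1 and Perp, and the groups overlap for the other 6 genes.

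Between 4.5DDC and 6.5DDC, called the whole span here, 2 of the 10 genes fell, Trp53 and the pro-apoptotic Pmaip1, and 0 rose. Over the same span 18.7% of all genes tested changed, 9.53% by falling and 9.21% by rising, so the share of the list was near that of all genes. The median log2 fold change of the 10 genes was −0.57, against 0.0040 over all genes tested, and 9 of the 10 values were below 0. In 4 genes all 3 libraries at 6.5DDC were below all 3 at 4.5DDC in FPKM, which was the case for 16.7% of all genes tested. DESeq2, another count test, called 4 of the 10 genes, all lower, and 3674 of all genes, and limma voom called 3 of the 10 and 2660 of all genes.

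The levels at 4.5DDC spanned from Ccng1, at 220 FPKM, to Pmaip1, at 3.69 FPKM. In descending order of mean FPKM came Ccng1, Bax, Mdm2, Trp53inp1, Trp53, Sesn2, Zmat3, Perp, Bbc3 and Pmaip1. In this order the libraries of Bax, Mdm2, Trp53inp1, Trp53 and Sesn2 overlapped between each gene and the next, as did those of Bbc3 and Pmaip1. At 6.5DDC the order was Ccng1, Trp53inp1, Bax, Mdm2, Sesn2, Trp53, Zmat3, Perp, Bbc3 and Pmaip1. There Trp53inp1, Bax and Mdm2 overlapped in turn, and so did Sesn2, Trp53 and Zmat3, and Perp with Bbc3.

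Trp53 was measured at 29.7, 46.2 and 29.8 FPKM at 4.5DDC, at 25.5, 27.6 and 31.2 FPKM at 5.5DDC, and at 19.0, 14.3 and 19.2 FPKM at 6.5DDC (replicates 1, 2 and 3 in turn). All libraries at 6.5DDC were below every earlier library, 4.5DDC and 5.5DDC overlapped, and replicate 2 was the highest library at 4.5DDC and the lowest at 6.5DDC. The mean went from 35.2 ± 9.46 FPKM to 28.1 ± 2.85 FPKM and 17.5 ± 2.81 FPKM (SD, n = 3). Over the whole span the log2 fold change of Trp53 was −1.001 (SE 0.20, adjusted p = 0.0107), a fall to 49.97% of the level at 4.5DDC. The fall was called with each library left out in turn (adjusted p between 0.0109 and 0.0477), and without the replicate 1 libraries it was −1.19 ± 0.23 (adjusted p = 0.00671, edgeR). Neither step was called alone: the change was −0.38 ± 0.20 to 5.5DDC (adjusted p = 0.396) and −0.62 ± 0.20 from there on (adjusted p = 0.185). Trp53 lies at chr11:69580359-69591873 (GRCm38, plus strand), shares no exonic base with another annotated gene, and has a processed pseudogene, Trp53-ps, which had between 0 and 13 counts in a library.

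The promoters of these genes were looked at for the motif that p53 reads. The known p53 decamer is a run of 3 purines, C, 2 bases that are each A or T, G and 3 pyrimidines, it reads alike on both strands, and full binding sites hold a pair of them. RefSeq promoter windows of 300 bases (build GRCm38.p6, 250 before and 50 after the start of transcription) were at hand for 6 of the 10 genes, namely Trp53, Mdm2, Ccng1, Bax, Bbc3 and Sesn2. The windows of 4 of these 6 genes held the decamer, against 9.55% of the 27025 gene symbols with a window, and 0 of the 6 held a pair of exact decamers 0 to 13 bases apart, against 0.074% of symbols. They are printed with 10 bases on each side, on the strand of the gene and with the decamer in capitals. A match is a run of letters and not a binding site.
Trp53, chr11:69580274-69580303, plus strand: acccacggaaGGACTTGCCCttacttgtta
Mdm2, chr10:117710925-117710954, minus strand: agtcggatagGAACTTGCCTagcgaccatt
Ccng1, chr11:40755452-40755481, minus strand: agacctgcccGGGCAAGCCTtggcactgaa
Bax, chr7:45467080-45467109, minus strand: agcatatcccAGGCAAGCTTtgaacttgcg
The decamers begin 75 bases before the start of transcription in Trp53, 186 in Mdm2, 185 in Ccng1 and 201 in Bax. Of these 4 genes Trp53 fell from 4.5DDC to 6.5DDC, and Mdm2, Ccng1 and Bax did not pass the test. Among the wider targets described below, 12 of 33 genes with a window held the decamer, and 1 of them held a pair.

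Mdm2, the ubiquitin ligase that limits p53, was at 58.7, 51.5 and 61.0 FPKM at 4.5DDC, at 57.9, 50.9 and 58.5 FPKM at 5.5DDC, and at 48.1, 46.3 and 48.8 FPKM at 6.5DDC. The 3 libraries at 6.5DDC were the lowest of the 9, by a small margin, and the earlier groups overlapped throughout. The log2 fold change over the whole span was −0.20 ± 0.12 (adjusted p = 0.260), and the mean at 6.5DDC was 47.7 ± 1.29 FPKM. Ccng1, which encodes cyclin G1, a partner of protein phosphatase 2A that acts on Mdm2, was the most abundant of the 10 genes. It stood at 198, 236 and 225 FPKM at 4.5DDC, at 207, 204 and 196 FPKM at 5.5DDC, and at 225, 224 and 149 FPKM at 6.5DDC. The groups overlapped, replicate 3 at 6.5DDC was the lowest library of all, and the log2 fold change of −0.10 ± 0.18 (adjusted p = 0.732) turned to 0.10 without that library (adjusted p = 0.661, over the alternatives 0.349 to 0.971).

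Of the genes of apoptosis, Pmaip1 had the largest change of the 10. It encodes Noxa, a BH3-only protein that binds and neutralises the survival protein Mcl1. Its FPKM was 4.23, 3.38 and 3.47 at 4.5DDC, 1.51, 1.87 and 1.32 at 5.5DDC, and 0.560, 1.39 and 0.677 at 6.5DDC. All libraries at 4.5DDC were above every later one, and replicate 2 at 6.5DDC lay within the range of 5.5DDC. Over the whole span Pmaip1 fell by 2.07 in log2 (SE 0.35, adjusted p = 0.00524), which left 23.8% of its level, and this call was kept with each library left out and, at −1.76 ± 0.37 (adjusted p = 0.0102), without the replicate 1 libraries. The change was −1.28 ± 0.34 in the first step (adjusted p = 0.166) and −0.79 ± 0.35 in the second (adjusted p = 0.259).

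Bbc3 encodes Puma, a BH3-only protein that binds all anti-apoptotic members of the Bcl-2 family. It was at 2.81, 6.76 and 1.83 FPKM at 4.5DDC, at 5.46, 4.15 and 3.47 FPKM at 5.5DDC, and at 1.59, 1.57 and 1.87 FPKM at 6.5DDC. All 3 libraries at 6.5DDC were below all 3 at 5.5DDC, but replicate 3 at 4.5DDC was as low as those at 6.5DDC and replicate 2 at 4.5DDC was the highest of the 9. The log2 fold change over the whole span, −1.08 ± 0.41, did not pass (adjusted p = 0.0922), and it depended on single libraries at 4.5DDC. It was −0.49 without replicate 2, the highest library (adjusted p = 0.364), and −1.40 without replicate 3, where it passed (adjusted p = 0.0364, over the alternatives 0.0364 to 0.364). Bbc3 was the 1 member with an unadjusted p under 0.05 for a difference between the 2 steps, which were 0.28 ± 0.40 and −1.36 ± 0.41 (adjusted p of the difference 0.760, edgeR).

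Bax encodes the pore-forming protein that such BH3-only proteins release. It was measured at 90.0, 142 and 59.0 FPKM at 4.5DDC, at 109, 98.8 and 84.8 FPKM at 5.5DDC, and at 49.6, 41.4 and 71.1 FPKM at 6.5DDC. As for Bbc3, all 3 libraries at 6.5DDC were below all 3 at 5.5DDC, and at 4.5DDC replicate 2 was high and replicate 3 was low, below the highest library at 6.5DDC. The log2 fold change over the whole span was −0.84 ± 0.28 (adjusted p = 0.0625), and it passed without replicate 3 at 4.5DDC (adjusted p = 0.0264) and in DESeq2 (adjusted p = 0.0258, over the alternatives 0.0258 to 0.219). Without replicate 2 at 4.5DDC, the highest library, it was −0.49 (adjusted p = 0.219). In the annotation 192 of the 1576 exonic bases of Bax (12.2%) are shared with another gene on the same strand, Gm45808, which has no entry in the deposited counts.

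Perp, a membrane protein of desmosomes that takes part in p53-dependent apoptosis, was at 10.4, 6.80 and 8.03 FPKM at 4.5DDC, at 4.83, 3.39 and 3.79 FPKM at 5.5DDC, and at 5.82, 3.69 and 1.81 FPKM at 6.5DDC. All libraries at 4.5DDC were above all later ones, and in each group replicate 1 was the highest. The log2 fold change was −1.16 ± 0.39 over the whole span (adjusted p = 0.0638) and −1.12 ± 0.39 in the first step (adjusted p = 0.235). Without the replicate 1 libraries it was −1.47 ± 0.35 and passed (adjusted p = 0.0161), as it did with replicate 1 at 6.5DDC alone left out (adjusted p = 0.0164, over the alternatives 0.0161 to 0.169). Perp was called in 6 of 21 alternatives, the other 4 being DESeq2 (adjusted p = 0.0219), limma voom (adjusted p = 0.0325), the fit of log2 FPKM with 1 added (adjusted p = 0.0472) and the replicate block (adjusted p = 0.0198).

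The 3 genes that act in metabolism, autophagy and RNA control were not called. Sesn2, a sestrin that restrains the growth kinase complex mTORC1, was at 27.1, 31.2 and 23.4 FPKM at 4.5DDC, at 29.7, 30.2 and 32.2 FPKM at 5.5DDC, and at 28.0, 16.9 and 20.9 FPKM at 6.5DDC. Replicates 2 and 3 at 6.5DDC were the lowest of the 9 libraries, while replicate 1 stayed within the range of 4.5DDC. The log2 fold change was −0.31 ± 0.19 (adjusted p = 0.262), and it passed without replicate 1 at 6.5DDC (adjusted p = 0.0267) and, at −0.56 ± 0.16, without all replicate 1 libraries (adjusted p = 0.0305, over the alternatives 0.0267 to 0.627). Over the alternatives its log2 fold change ran from −0.56 to −0.16.

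Trp53inp1, a stress protein that promotes autophagy and apoptosis, was the 1 member with a value above 0. It was at 60.5, 43.9 and 53.3 FPKM at 4.5DDC, at 55.2, 62.7 and 64.2 FPKM at 5.5DDC, and at 52.8, 73.0 and 61.0 FPKM at 6.5DDC. The groups overlapped, and the log2 fold change was 0.21 ± 0.18 (adjusted p = 0.422). Over the alternatives its value ran from 0.041 to 0.36, and 0 of 21 called it. Zmat3, a zinc finger protein that binds RNA and acts on splicing and stability of transcripts, was at 17.7, 19.7 and 19.1 FPKM at 4.5DDC, at 16.7, 20.03 and 19.7 FPKM at 5.5DDC, and at 12.9, 18.3 and 17.8 FPKM at 6.5DDC. Here the groups overlapped as well, with replicate 1 the lowest library at each time point, and the log2 fold change was −0.21 ± 0.15 (adjusted p = 0.346).

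**Figure D2:**
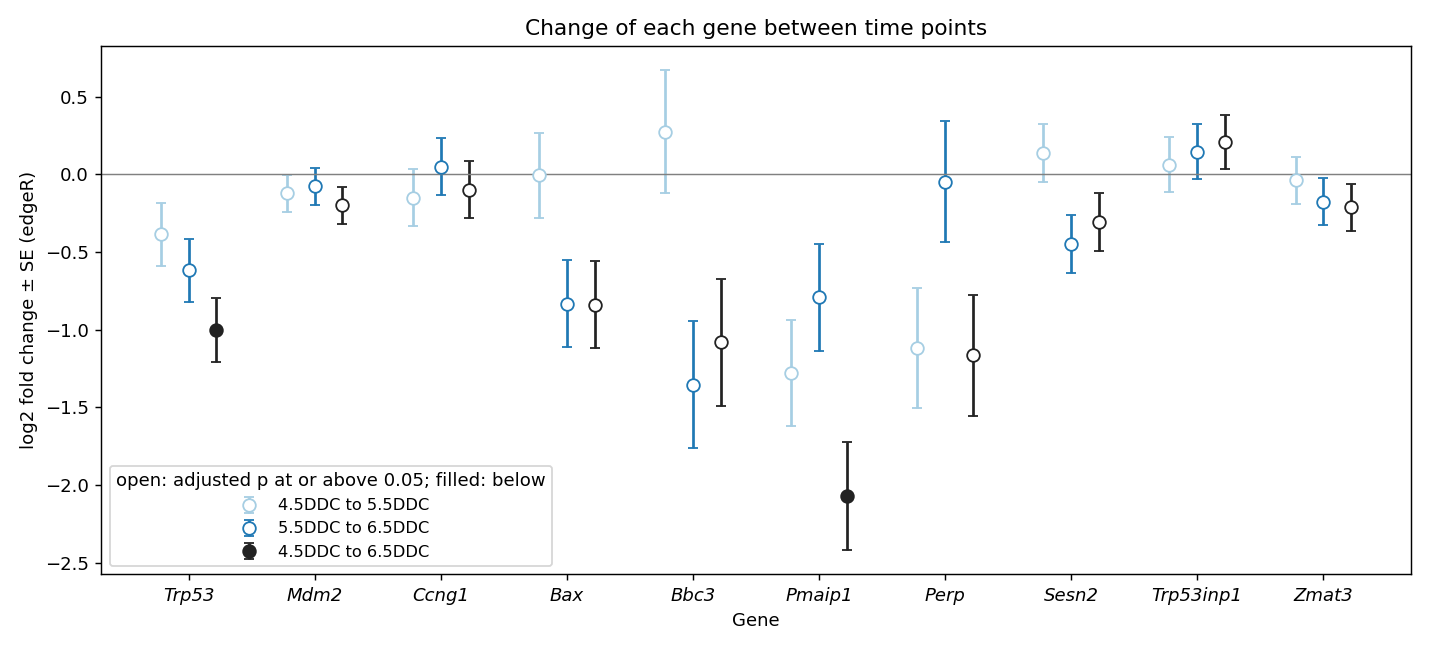
Log2 fold change ± SE of each gene in the fit of all 9 libraries, for both steps and for the whole span, on a linear axis. Filled points, with an adjusted p under 0.05, are the whole-span falls of Trp53 (−1.001) and Pmaip1 (−2.07), and all 28 other points are open.

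Taken step by step, 0 of the 10 genes were called from 4.5DDC to 5.5DDC in edgeR, where 0.0746% of all genes tested were called, and 2 had an unadjusted p under 0.05, as did 2275 of all 14742 genes. DESeq2 called 1 of the 10 in that step, Pmaip1, and 495 of all genes, and limma voom called 0 of the 10 and 11 of all genes. From 5.5DDC to 6.5DDC edgeR again called 0, against 0.224% of all genes, and 5 had an unadjusted p under 0.05, as did 2733 of all 14742 genes. In that step DESeq2 called 1, Bbc3, and 662 of all genes, and limma voom called 0 of the 10 and 37 of all genes. In the test of any difference across the 3 time points Trp53 (adjusted p = 0.0342) and Pmaip1 (adjusted p = 0.0143) were called, 2 of 10 beside 9.63% of all genes. Trp53 lost that call with any of 6 libraries left out in turn, with an adjusted p of up to 0.126, and Pmaip1 kept it in every fit. The test of whether the 2 steps differed called 0 of the 10, as it called 0.0% of all genes in edgeR, 1 of the 10 and 701 of all genes had an unadjusted p under 0.05, and DESeq2 and limma voom called 0 of the 10.

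Of 40 further genes known as p53 targets, 38 were tested and 12 (31.6%, beside 18.7% of all genes) changed from 4.5DDC to 6.5DDC, 6 in each direction, with a median log2 fold change of −0.10 over the 38. The 6 that fell include Gtse1 (−2.21 ± 0.25, adjusted p = 0.00138), a microtubule protein of G2 phase that also binds p53, and Psrc1 (−1.41 ± 0.20, adjusted p = 0.00273), a protein of the mitotic spindle. Also lower were Lrdd, now named Pidd1, which nucleates a caspase-2 platform (−1.65 ± 0.34, adjusted p = 0.0116), and Aen, an apoptosis-enhancing nuclease (−1.16 ± 0.20, adjusted p = 0.00611). Among the 6 that rose were Fas, a death receptor, from 2.17 to 9.24 FPKM (2.13 ± 0.60, adjusted p = 0.0354), and Ephx1, an epoxide hydrolase, from 1.08 to 2.30 FPKM (1.32 ± 0.38, adjusted p = 0.0409). Rps27l, a ribosomal protein paralogue and the most abundant of the list at 357 FPKM, did not pass (−0.67 ± 0.23, adjusted p = 0.0643). With 444 to 1040 counts in a library it had fewer counts than Ccng1 at a higher FPKM. FPKM is scaled to transcript length, which can itself part FPKM from counts. Whether the level and the log2 fold change of Rps27l also rest on different reads was not tested. Cdkn1a, the inhibitor of cyclin-dependent kinases through which p53 arrests the cell cycle, is named after its values were seen. It was at 40.5 FPKM at 4.5DDC and 36.8 FPKM at 6.5DDC, with a log2 fold change of −0.15 ± 0.17 (adjusted p = 0.551, edgeR). Fas was not called in 5 of 21 alternatives, Ephx1 in 10 and Lrdd in 1. Left-out libraries moved the number of changed wider targets, and the even split by direction with it. There were 0 higher and 5 lower without replicate 2 at 4.5DDC, 1 higher and 4 lower without replicate 2 at 6.5DDC, and 2 higher and 5 lower without replicate 3 at 4.5DDC. Over all genes the calls moved as well, from 2763 to 1152, 1125 and 2027 in these 3 fits in turn. Without the replicate 1 libraries 20 wider targets changed, 10 in each direction, and 4586 of all genes.

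Among 23 regulators and relatives of p53, 3 of the 21 tested changed over the whole span (14.3%, beside 18.7% of all genes). Their median log2 fold change over the 21 was −0.20. The checkpoint kinases Chek1 (−1.38 ± 0.27, adjusted p = 0.00853) and Chek2 (−1.02 ± 0.18, adjusted p = 0.00585), which phosphorylate p53 after replication stress and DNA breaks, fell, and Ppp1r13b, whose protein ASPP1 favours the apoptotic targets of p53, rose (0.83 ± 0.22, adjusted p = 0.0294). Ppp1r13b was not called in 8 of 21 alternatives. Rpl11, a ribosomal protein that binds Mdm2 and the most abundant gene of this list at 413 FPKM, was at −0.35 ± 0.22 (adjusted p = 0.276). It had 70 to 280 counts in a library, against 7357 to 17679 for Ccng1 at a mean of 207 FPKM. Transcript length enters FPKM but not counts, and the FPKM and the log2 fold change of Rpl11 may also rest on different reads. The reason was not tested. The family members Trp63 and Trp73 were too low to be tested, with mean levels of up to 0.126 and 0.0119 FPKM.

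The Bcl-2 family beyond the members numbered 12 genes. Of these 11 were tested and 3 changed (27.3%, beside 18.7% of all genes), with a median log2 fold change of −0.058. Bok, a relative of Bax, fell (−1.69 ± 0.36, adjusted p = 0.0124), as did Bid, a BH3-only protein cut by caspase-8 (−0.70 ± 0.21, adjusted p = 0.0466), and the survival gene Bcl2l2 rose (0.65 ± 0.14, adjusted p = 0.0121). Bid was called in 4 of 21 alternatives, Bok in 20 and Bcl2l2 in 19. Mcl1, the partner of Noxa and the most abundant of the family at 54.6 FPKM, was at −0.04 ± 0.13 (adjusted p = 0.842). Stress genes of 2 other kinds were set beside these. Of 10 genes of the integrated stress response 2 changed, with a median of −0.089, as Slc7a11, a cystine transporter, rose (1.73 ± 0.25, adjusted p = 0.00305) and Asns, asparagine synthetase, fell (−0.68 ± 0.20, adjusted p = 0.0387). The most abundant of these was the transcription factor Atf4, at 69.6 FPKM and −0.50 ± 0.18 (adjusted p = 0.0768). Of the 10 immediate early genes 9 were tested, with a median of 0.51, and 2 rose (22.2%, beside 9.21% of all genes). They were Egr1 (1.62 ± 0.35, adjusted p = 0.0129) and Btg2, an antiproliferative p53 target held by both lists and the most abundant here at 41.6 FPKM (0.48 ± 0.14, adjusted p = 0.0413). Asns was not called in 7 of 21 alternatives, Btg2 in 11 and Egr1 in 1.

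**Figure D3:**
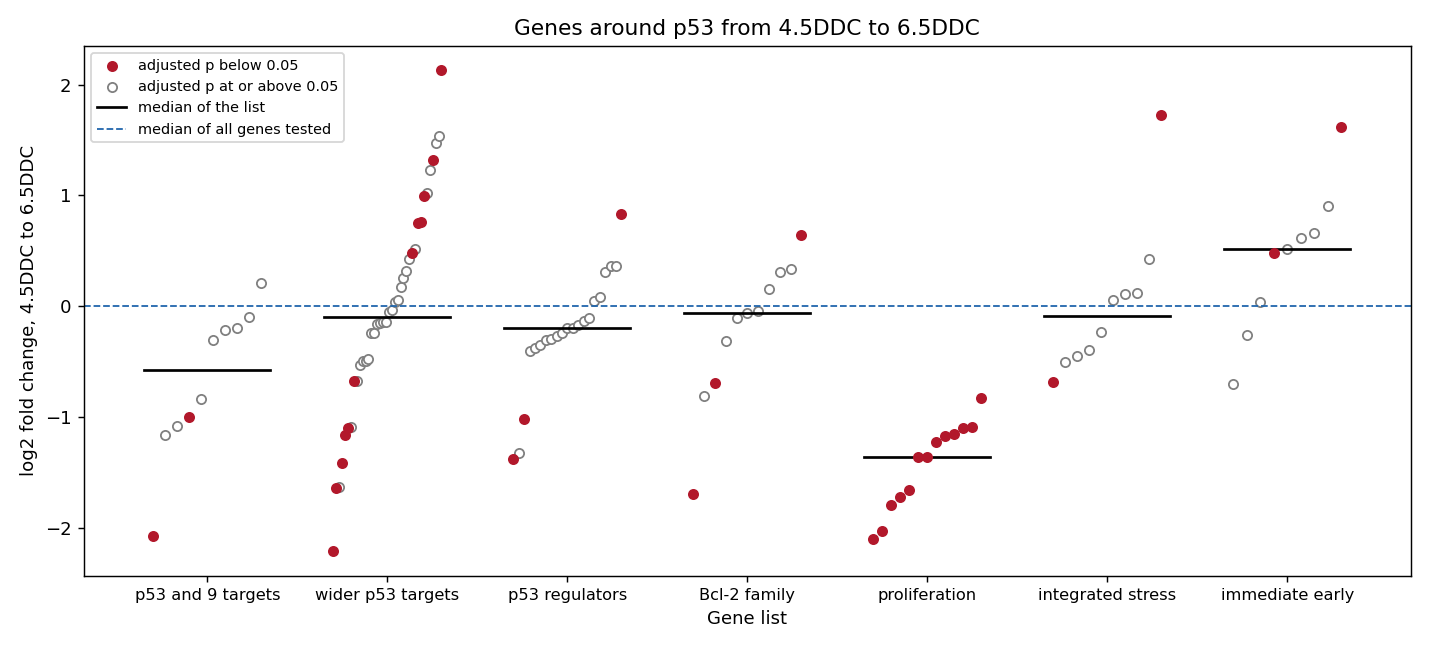
Log2 fold change from 4.5DDC to 6.5DDC of each tested gene in 7 lists, sorted within each list, with genes called at an adjusted p under 0.05 in red, list medians as black lines and the median of all genes tested as a dashed line. The wider p53 targets spread from −2.21 (Gtse1) to 2.13 (Fas) around a median of −0.10, while all 13 proliferation genes are red and below 0.

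Genes of proliferating cells were also lower at 6.5DDC. All 13 of 13 proliferation genes fell from 4.5DDC to 6.5DDC, beside 9.53% of all genes, with a median log2 fold change of −1.36. Their summed level was 1207, 1445 and 1473 FPKM at 4.5DDC, 840, 1022 and 1031 FPKM at 5.5DDC, and 753, 583 and 400 FPKM at 6.5DDC. For this sum, all libraries of a later time point were below all those of an earlier one. Trp53 overlapped between 4.5DDC and 5.5DDC. At 6.5DDC the sum was lowest in replicate 3. Trp53 was lowest in replicate 2 and nearly equal in replicates 1 and 3 (19.0 and 19.2 FPKM). The proliferation genes also differed in order at 6.5DDC. Plk1, Mcm2, Mcm5 and Mybl2 were, like Trp53, highest in replicate 2 at 4.5DDC and lowest in replicate 2 at 6.5DDC. Mybl2, for example, was at 5.38, 3.21 and 4.77 FPKM at 6.5DDC. All other proliferation genes were lowest in replicate 3 at 6.5DDC, among them Top2a (178.8, 147.7 and 93.7 FPKM). Top2a, topoisomerase 2, was the most abundant at 230 FPKM (−1.17 ± 0.27, adjusted p = 0.0168). The largest changes were those of Mcm5 (−2.10 ± 0.25, adjusted p = 0.00151) and Mcm2 (−1.37 ± 0.22, adjusted p = 0.00443), both of the replicative helicase, the S phase factor Mybl2 (−2.03 ± 0.22, adjusted p = 0.00125), the mitotic kinase Plk1 (−1.80 ± 0.22, adjusted p = 0.00165), the polymerase clamp Pcna (−1.72 ± 0.24, adjusted p = 0.00238) and Foxm1, which drives genes of mitosis (−1.66 ± 0.16, adjusted p = 0.000844). Gtse1, Psrc1 and Chek1 above are also expressed with the cell cycle. The part of proliferation in the falls of Trp53 and Pmaip1 was not tested.

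Markers of cell types were read in the same libraries. Of 9 neural progenitor genes 3 changed (33.3%, beside 18.7% of all genes), with a median of 0.086. Prom1, by whose protein the cells were sorted, rose (1.19 ± 0.18, adjusted p = 0.00364), and Sox3 (−1.80 ± 0.49, adjusted p = 0.0330) and Nkx6-1 (−1.14 ± 0.28, adjusted p = 0.0220) fell. Vim, the most abundant at 1791 FPKM, was at 0.23 ± 0.16 (adjusted p = 0.343). Of the 9 neuronal genes measured, 4 changed (44.4%, beside 18.7% of all genes), with a median of 1.23. Fev (5.14 ± 0.77, adjusted p = 0.00311), Gata3 (2.46 ± 0.58, adjusted p = 0.0189) and Map2 (1.65 ± 0.31, adjusted p = 0.00768) rose, and Isl1 fell (−2.44 ± 0.31, adjusted p = 0.00173). Tubb3 was not analysed here. Sox3 was not called in 6 of 21 alternatives, and Nkx6-1 and Gata3 each in 2. The summed neuronal level was 202, 385 and 310 FPKM at 4.5DDC, 174, 447 and 466 FPKM at 5.5DDC, and 261, 605 and 655 FPKM at 6.5DDC, led by Stmn2 at 108 FPKM. Replicate 1 was the lowest at each time point, and without the replicate 1 libraries Map2 also rose (1.93 ± 0.16, adjusted p = 0.000376), so that fit does not set the neuronal genes aside. The part of neuronal cells in the values of Trp53, Pmaip1 and the other members was not tested.

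**Figure D4:**
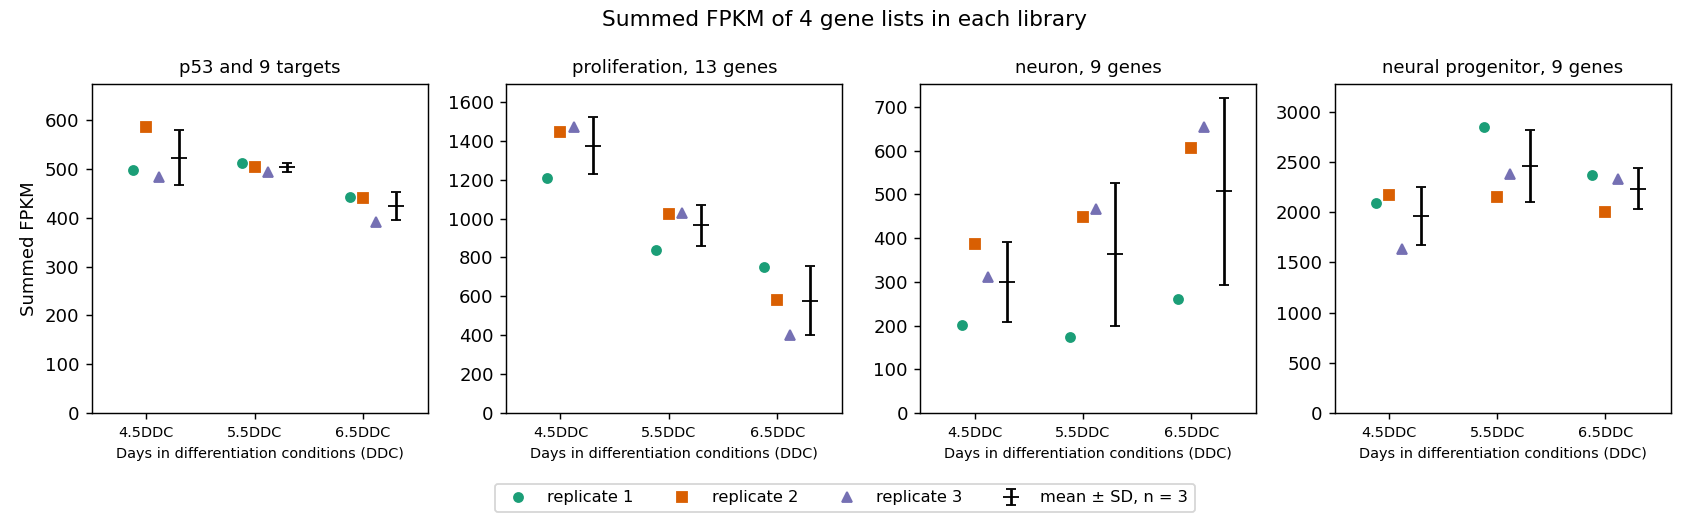
Summed FPKM per library of the 10 genes, of 13 proliferation genes, of 9 neuronal genes and of 9 neural progenitor genes, by time point, with replicate numbers as symbols and the mean ± SD of 3 libraries in black, on linear axes from 0. Proliferation sums go from 1207 to 1473 FPKM at 4.5DDC to between 400 and 753 FPKM at 6.5DDC, and the neuronal sum of replicate 1 is the lowest at each time point.

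Markers of other origins were read as well. The 6 pluripotency genes summed to between 0.393 and 2.28 FPKM in a library, with Dppa5a the most abundant at 0.643 FPKM and 0 of 1 tested called. The 6 endoderm genes summed to 6.86 FPKM in replicate 1 at 6.5DDC and to at most 1.62 FPKM elsewhere, led by Ttr at 0.491 FPKM, and 0 of 2 tested were called. The 6 neural crest and mesenchyme genes summed to 8.16 ± 3.74 FPKM at 4.5DDC and 30.8 ± 16.1 FPKM at 6.5DDC (SD, n = 3). Twist1 was the 1 of 4 tested genes that rose (0.74 ± 0.19, adjusted p = 0.0276), which is 25.0% beside 9.21% of all genes. Col3a1 was the most abundant at 8.94 FPKM. The 6 epithelial genes, led by Krt18 at 33.5 FPKM, went from 64.1 ± 15.7 to 44.2 ± 8.20 FPKM in sum with 0 of 4 tested called, and Krt5 had 0 counts in all 9 libraries. Twist1 was not called in 8 of 21 alternatives. Without the replicate 1 libraries Twist1 did not pass (adjusted p = 0.0686) and Col3a1 rose (2.96 ± 0.39, adjusted p = 0.00150). Of the floor plate genes Shh, the most abundant at 219 FPKM, rose (0.79 ± 0.22, adjusted p = 0.0321), and it was not called in 4 of 21 alternatives. Perp, which is also an epithelial gene, differed in the same direction as the epithelial sum. Without the replicate 1 libraries Perp passed, in a fit that called 4586 of all genes. There the epithelial genes Cdh1 (−0.62 ± 0.19, adjusted p = 0.0422) and Krt8 (−0.62 ± 0.19, adjusted p = 0.0415), named after their values were seen, fell as well. Epcam (−0.96 ± 0.33, adjusted p = 0.0585) and Krt18 (−0.42 ± 0.16, adjusted p = 0.0749) did not pass there. In the fit of all 9 libraries Perp was at −1.12 in the first step and −0.05 in the second. Cdh1 was at 0.08 and −0.62 in these steps, and Krt8 at −0.20 in each. The part of epithelial cells in the values of Perp was not tested.

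The genes whose course over the 9 libraries was nearest to that of Trp53 were found among 10330 genes with a mean of at least 3 log2 CPM, by the root mean square difference of the mean-centred log2 CPM values. They were Tsfm, a mitochondrial translation factor (0.088), the tubulin gene Tubb5 (0.098), Tbrg4, of mitochondrial RNA processing (0.10), the transcription factor gene E2f4 (0.10) and Dnajc11, a mitochondrial co-chaperone (0.11). All 5 fell over the whole span, with log2 fold changes of −1.02, −0.94, −1.15, −0.81 and −0.96 in that order. Since they were chosen for a course near that of Trp53 in these libraries, their falls follow from the choice. Nearest to Pmaip1, the member with the widest range of its mean levels (2.18 log2 CPM), were the chromatin protein gene Hmga2 (0.31), the centromere gene Cenph (0.37), Trim71, a let-7 target of early progenitors (0.40), Gli3, a Hedgehog transcription factor gene (0.40), and Pole, a DNA polymerase subunit gene (0.43). These, chosen in the same way, fell as well, with log2 fold changes of −2.12, −1.81, −1.82, −2.61 and −2.01. The distances were larger for Pmaip1, whose counts were the lowest of the 10 genes.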

How the data were processed

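The 9 libraries of prominin-1-sorted cells were grouped by the times in their titles (4.5DDC, 5.5DDC, 6.5DDC), 3 in each group. Polyadenylated RNA was read as single 50-base ends, and per the submitters' processing notes reads were mapped with TopHat2 2.0.4 to GRCm38 and counted with HTSeq 0.6.1. The annotation release and strand setting are not given in the sources used here. The authors deposited counts per gene symbol without normalization, and in 98 of 38197 symbols these deposited counts were not whole, as estimated or expected counts can be. Whole counts had been assumed, so the values were rounded before testing. The authors computed FPKM with Cufflinks 2.1.1, and the deposited FPKM are the levels given. Deposited log2 values followed from the counts and were not used.

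The filter was filterByExpr by group, which left 14742 genes, and counts were scaled by TMM (factors 0.951 to 1.04) and fitted with edgeR 4.0.16 (R 4.3.3) over all 9 libraries without covariates, with 6 residual degrees of freedom. P-values were adjusted by Benjamini-Hochberg over all genes tested. The alternatives were 3 other scalings, 2 other filters, DESeq2 1.42.0, limma 3.58.1 (voom, and log2 FPKM with 1 or 0.1 added), the 6 libraries compared, a replicate block and each library left out. In simulated data the changed genes were drawn from those above the median abundance, with the same dispersion for every gene. Of 100 such genes changed by 2 in log2 at 6.5DDC the edgeR fit called 100 from 4.5DDC to 6.5DDC. Of 100 changed by 1 it called 34, with 7 other calls, so changes of that size can go uncalled. Genes below that abundance, such as Pmaip1 and Bbc3, were not covered, so these shares do not hold for them. Positions are from GENCODE M21 and promoters from RefSeq (GRCm38.p6).

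The members and lists were chosen with earlier results of these data known. Every member is given in each library. From each other list, the genes named are those changed from 4.5DDC to 6.5DDC (up to 6, by size of change), the most abundant gene and markers at 0 in all libraries. For Trp53 and the member of widest range, the 5 nearest genes are named. Not every gene under these rules is reported. The lists were wider targets, regulators, the Bcl-2 family, proliferation, integrated stress, immediate early genes and markers of neural progenitors, neurons, pluripotent cells, endoderm, crest and mesenchyme, epithelium and floor plate.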

Additional observations from a re-analysis of the deposited data

How the results depend on the processing

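Trp53 and Pmaip1 were called from 4.5DDC to 6.5DDC in all 21 alternatives. Under DESeq2 the calls among the 10 genes were 1, 1 and 4 for the first step, the second step and the whole span, and 5 across the 3 time points, where it called 2976 of all genes. Without the replicate 1 libraries, an alternative added after seeing the data, they were 1 in the second step, 4 over the whole span and 4 across time points, and 20 wider targets changed, while over all genes the calls went from 33 to 728 in the second step, from 2763 to 4586 over the whole span and from 1420 to 3316 across time points. With each library left out, the 10 genes gave 2 to 4 calls over the whole span, beside 1125 to 3132 over all genes, and 1 to 4 across time points, beside 323 to 1831 over all genes, with 0 in either step and 0 for the difference between steps, and the wider targets gave 5 to 13. The causes were not tested.

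Replicate numbers were not taken to pair the libraries. Deviations from the group mean correlated above 0.1 in 7 of 9 same-numbered pairs, 6 of them between adjacent time points, and from 4.5DDC to 6.5DDC in 1 of 3, and a library correlated best with its own number in 10 of 18 cases. A replicate block called 3 of the 10 genes over the whole span and 3 across time points, adding Perp, and 15 wider targets, and it changed no other call of the members. Over all genes it called 212, 195 and 3418 in the 3 comparisons, against 11, 33 and 2763 without it, and 2180 across time points, against 1420. Other counts for the first and second step ran from 1 to 495 and from 0 to 728, and for the whole span from 1125 to 4586.

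The sign of 25 member values differed from that of the fit described, 0 of them with an adjusted p under 0.05 (lowest 0.5615). In the first step Bax, at −0.01, became 0.0154 with library totals, 0.0245 with upper quartile scaling, 0.0203 without a filter, 0.0238 with the CPM filter, 0.122 with voom, 0.0921 and 0.0938 with FPKM plus 1 and plus 0.1, and 0.0180 with the block. In the second step Ccng1, at 0.05, became −0.0135 with voom, −0.0484 and −0.0487 with the FPKM fits and −0.0519 without the replicate 1 libraries, where Bbc3 was −0.0638 in the first step. With each library left out, first-step values ran from −0.244 to 0.338 for Bax, −0.0468 to 0.863 for Bbc3, −0.0648 to 0.152 for Trp53inp1 and −0.105 to 0.0386 for Zmat3. Second-step values ran from −0.0567 to 0.247 for Ccng1, −0.0209 to 0.243 for Trp53inp1 and −0.522 to 0.310 for Perp, and whole-span values from −0.209 to 0.0966 for Ccng1. Of the 32 genes of other lists that were called and fall under the naming rule, 16 were called in every alternative. TMM left a median log2 fold change of 0.0040 over all genes.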
